A study of Homo sapiens with 2 samples.

Results

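Sequencing of bisulfite-converted, captured DNA covered 4 stretches of the genome less deeply in SKNO-1 than in SKNO1-siAE, and the DNA methylation of these stretches is described here. The stretches were chosen by measured values: they are chromosome 13, chromosome 18, distal chromosome 2 and chromosome 17 below 22 Mb, where the share of a library's reads was lower in SKNO-1. On distal chromosome 2 the measured cytosines ran from 195041192 to 243153533 (hg19, the build of all positions here). They held 8162 of the 99847 autosomal tiles of 500 bp that had 10 or more measured cytosines (101183 tiles over all chromosomes), and 246318 of the 3125690 autosomal cytosines that had 5 or more reads in both libraries. Distal chromosome 2 gave 1694 tiles, chromosome 13 gave 3273, chromosome 17 below 22 Mb gave 1480 and chromosome 18 gave 1715.

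SKNO-1 is a human acute myeloid leukaemia line that carries the RUNX1-RUNX1T1 fusion gene made by a translocation, and SKNO1-siAE is a line derived from it by a lentiviral vector (pRRLcPPT.hPGK) whose small interfering RNA targets the fusion mRNA. The labels name no control vector in SKNO-1, so the vector and the silencing cannot be told apart. Each line gave 1 library, so there was no replicate, and a test on reads compares these 2 libraries and not the conditions. The fusion transcript was not measured by libraries of DNA, so the silencing could not be checked here. The reads carried no molecular identifiers, so intervals cover counting error only.

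In DNA methylation a methyl group is added to the cytosine of a CpG dinucleotide. CpG-rich promoters are usually unmethylated in normal cells, whereas the bodies of genes and the DNA between genes are usually methylated. RUNX1 binds DNA as a transcription factor of blood cells, and the fusion replaces its C-terminal part with RUNX1T1, which binds co-repressors.

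The sequences below are 150 bp stretches of promoter tiles with some of the largest differences in each segment, shown because most CpGs in them had opposite states in the libraries. Each is the plus strand of GRCh37, and capitals mark the CpGs that were measured in both libraries, a lone capital C at an end being a CpG that the stretch cuts. The level is the share of a cytosine's reads that were methylated, averaged over cytosines. Neighbouring cytosines are often covered by the same reads, so they are not independent measurements. In the first sequence, upstream of HJURP (chr2:234763501-234763650), the mean level of 15 cytosines was 0.880 in SKNO-1 and 0.0667 in SKNO1-siAE. At CTDSP1 (chr2:219262822-219262971) 8 cytosines had 0 and 0.986, in the same order. At NDFIP2 (chr13:80055621-80055770) 19 cytosines had 0.907 and 0.00479, and at KL (chr13:33589172-33589321) 10 cytosines had 0 and 0.975. At ZNF594 (chr17:5095164-5095313) 15 cytosines had 0.975 and 0, and at KCTD11 (chr17:7254559-7254708) 9 cytosines had 0 and 1. At ATP9B (chr18:76828589-76828738) 15 cytosines had 1 and 0, and at ACAA2 (chr18:47339692-47339841) 13 cytosines had 0 and 0.958.
HJURP: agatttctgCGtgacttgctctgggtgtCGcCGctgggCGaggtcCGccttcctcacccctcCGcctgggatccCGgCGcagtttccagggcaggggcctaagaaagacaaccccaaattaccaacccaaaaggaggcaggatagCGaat
CTDSP1: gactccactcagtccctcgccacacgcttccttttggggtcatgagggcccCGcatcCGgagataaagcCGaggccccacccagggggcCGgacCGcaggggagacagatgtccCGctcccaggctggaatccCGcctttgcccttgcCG
NDFIP2: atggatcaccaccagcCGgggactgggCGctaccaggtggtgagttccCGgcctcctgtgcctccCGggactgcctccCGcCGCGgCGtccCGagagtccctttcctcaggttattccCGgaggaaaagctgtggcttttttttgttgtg
KL: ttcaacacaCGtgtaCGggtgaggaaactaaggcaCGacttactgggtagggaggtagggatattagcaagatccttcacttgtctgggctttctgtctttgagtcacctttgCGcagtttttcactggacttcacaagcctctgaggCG
ZNF594: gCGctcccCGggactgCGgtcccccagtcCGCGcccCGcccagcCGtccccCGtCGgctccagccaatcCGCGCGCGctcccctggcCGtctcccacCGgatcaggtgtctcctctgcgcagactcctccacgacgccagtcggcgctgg
KCTD11: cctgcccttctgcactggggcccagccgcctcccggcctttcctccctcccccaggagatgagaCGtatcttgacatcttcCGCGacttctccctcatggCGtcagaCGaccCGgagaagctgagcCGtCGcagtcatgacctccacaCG
ATP9B: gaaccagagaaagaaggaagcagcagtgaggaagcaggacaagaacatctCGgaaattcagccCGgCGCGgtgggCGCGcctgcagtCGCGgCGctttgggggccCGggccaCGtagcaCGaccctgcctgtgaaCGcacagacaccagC
ACAA2: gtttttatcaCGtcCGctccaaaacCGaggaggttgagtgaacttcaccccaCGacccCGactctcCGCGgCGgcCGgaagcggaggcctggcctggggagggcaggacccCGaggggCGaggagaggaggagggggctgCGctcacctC

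The depth along the segments is given first, as a description, since it chose them. The median depth of a measured cytosine was 11 reads in SKNO-1 and 17 in SKNO1-siAE on distal chromosome 2, 16 and 22 on chromosome 13, 11 and 18 on chromosome 17 below 22 Mb, and 13 and 19 on chromosome 18. On the autosomes outside the segments it was 16 and 15. With the depths summed over cytosines, so that a read counts once for each CpG it spans, the segments together took 6.60% of the autosomal reads of SKNO-1 and 9.90% of those of SKNO1-siAE, a log2 ratio of the shares of -0.58. Segment by segment the log2 ratio was -0.69 on chromosome 2, -0.49 on chromosome 13, -0.81 on chromosome 17 and -0.56 on chromosome 18. Over the 20 other chromosomes, with the rest of chromosomes 2 and 17 counted as chromosomes, it lay between -0.27 (chromosome 6) and 0.50 (chromosome 15).

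The ratio was low along most of each segment, and its size varied between bins. In bins of 1 Mb with 50 or more sites, 217 of the 238 bins of the segments had a log2 ratio at or under -0.3, against 21% of all autosomal bins, a count that the choice of the segments used. All 47 bins on chromosome 2 and all 22 on chromosome 17 lay at or under this limit, with 65 of 72 on chromosome 18 and 83 of 97 on chromosome 13. The bins ran from -0.9985 to -0.34 on chromosome 2 and from -0.82 to 0.14 on chromosome 13. They ran from -1.67 to -0.57 on chromosome 17 and from -0.89 to 0.10 on chromosome 18. On chromosome 2 the last bin outside had -0.31 and the first one inside had -0.61, and the 10 bins before the segment had a median of -0.03. On chromosome 13 the segment held 4 bins near its start, from 19 to 23 Mb, with ratios from -0.28 to 0.14. The 93 bins after them had a median of -0.47 and ran from -0.82 to 0.13. On chromosome 17 the last bin inside had the lowest value of all segment bins, -1.67, and the bin just outside had -0.08. Beyond it the low stretch went on: the 11 bins from 25 to 36 Mb had -0.87 to -0.74, and the next 10 bins had a median of 0.03.

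**Figure D1:**
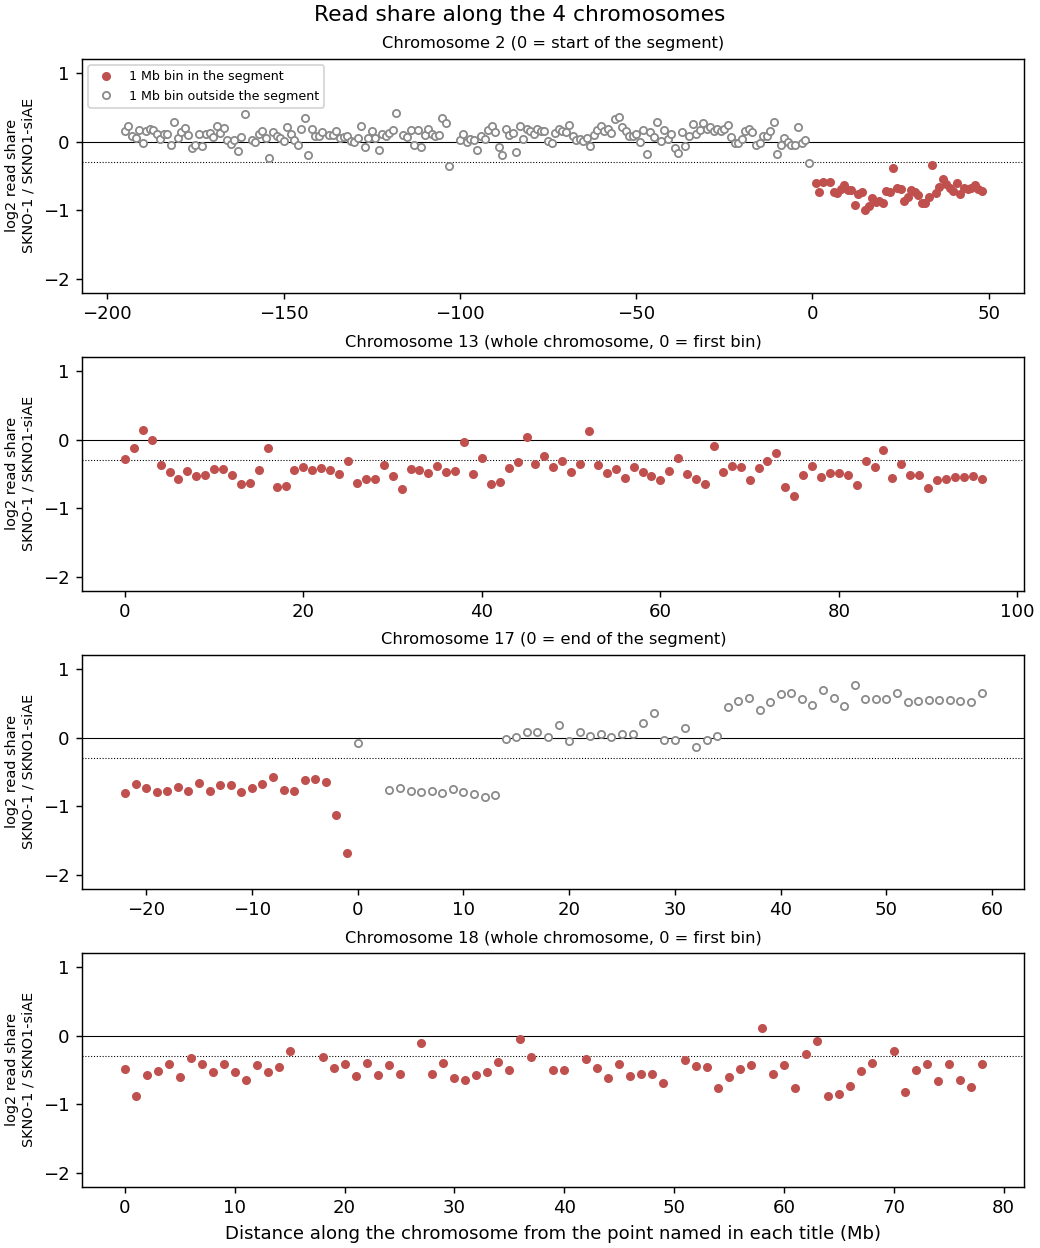
Log2 ratio of read shares (SKNO-1 over SKNO1-siAE, vertical axis) in 1 Mb bins along the 4 chromosomes, with the distance in Mb from the point named over each panel on the horizontal axis. Filled points are bins in a segment and open points are bins outside it, and the dotted line is the limit of -0.3. The 47 filled bins of chromosome 2 lay under the limit, the ratio on chromosome 17 was low again past the end of the segment, from 25 to 36 Mb, and the last 25 bins of that chromosome had a median of 0.55.

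Fewer cytosines of the segments reached 5 reads in SKNO-1. Of the cytosines deposited for SKNO1-siAE, 53.5% were also deposited for SKNO-1 on distal chromosome 2, 66.5% on chromosome 13, 52.1% on chromosome 17 below 22 Mb and 57.3% on chromosome 18, against 68.7% outside the segments. The values below rest on the shared cytosines alone. The cause of the lower depth was not tested.

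The mean level was lower in SKNO-1 both in the segments and outside them. Over the shared cytosines of all segments it was 0.629 in SKNO-1 and 0.70 in SKNO1-siAE, a difference of -0.0704, and outside the segments it was 0.585 and 0.652, a difference of -0.0671. With the reads of all cytosines summed the difference of the segments was -0.0740, and outside them it was -0.0675. Distal chromosome 2 had 0.646 and 0.706, a difference of -0.0600. Chromosome 13 had 0.654 and 0.726, with -0.0716, and chromosome 18 had 0.593 and 0.665, with -0.0715. Chromosome 17 below 22 Mb had 0.593 and 0.672 and the largest difference of the segments, -0.0784. Over each library's own sites its value was -0.0753, smaller than the -0.0798 of both chromosome 13 and chromosome 18. With reads summed it was -0.0906, larger than the -0.0802 of chromosome 18, the next in size. The 4 differences of the mean level over shared cytosines lay within the range of the 20 other chromosomes, from -0.0827 (chromosome 20) to -0.0543 (chromosome 14). The levels themselves were higher in the segments than outside them in both libraries.

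**Figure D2:**
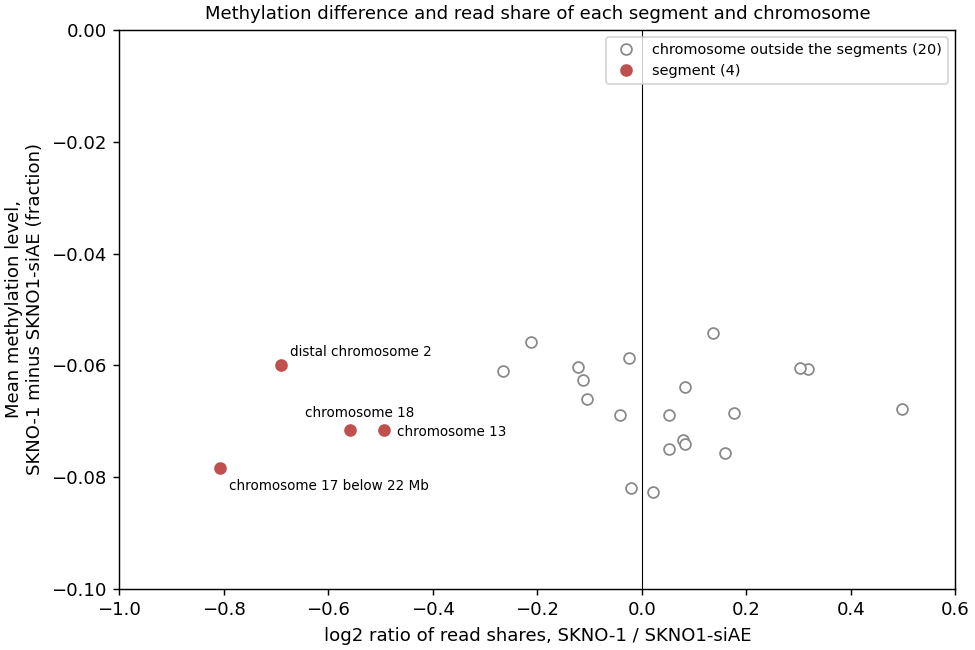
Difference of the mean methylation level, SKNO-1 minus SKNO1-siAE (vertical axis, fraction), against the log2 ratio of read shares (horizontal axis) for the 4 segments (filled) and the 20 other chromosomes (open). The segments were chosen by the value on the horizontal axis, where they lay from -0.81 to -0.49. Between -0.0784 and -0.0600 on the vertical axis they lay among the other chromosomes. Each open point pools a chromosome's reads outside the segments, low stretches included: 343 of 2429 bins of 1 Mb there lay at or under -0.3.

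The relation between read share and methylation difference had no common sign over the segments. Across 1 Mb bins, Pearson's r between the log2 read share ratio and the methylation difference was 0.57 on chromosome 2 (47 bins), -0.17 on chromosome 13 (97 bins), 0.33 on chromosome 17 (22 bins) and 0.02 on chromosome 18 (72 bins). Over 5 Mb bins it was 0.85 (10 bins), -0.40 (21 bins), 0.95 (5 bins) and -0.04 (16 bins) in the same order, so its size, and on chromosome 18 its sign, depended on the bin. A bin was given to the segment that held its start, so the last chromosome 17 bin, from 20 to 25 Mb, ran past 22 Mb. Of the 5 bins it had the lowest ratio, -1.10, and the largest difference, -0.115. Bins share their libraries and differ in depth and base composition, so these values are descriptions. Of the 238 bins of the segments, 217 had a lower level in SKNO-1, as did 2206 of the 2429 bins outside. Among the 5 Mb bins of the segments the greatest differences stood on chromosome 13 in bins with few genes, though a bin outside the segments reached -0.326. From 55 to 60 Mb, a stretch of 6 protein-coding genes, the level was 0.693 in SKNO-1 and 0.946 in SKNO1-siAE, and from 85 to 90 Mb, with 2 genes, it was 0.655 and 0.899. Over bins of 5 Mb with under 10 protein-coding genes the median difference was -0.114 in the segments (14 bins) and -0.0906 outside them (60 bins). With 20 to 39 genes it was -0.0628 (22 bins) and -0.0673 (193 bins).

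Tiles of 500 bp show the differences at the scale of a promoter. In the segments 1204 of 8162 tiles (14.8%) were lower in SKNO-1 by 0.2 or more, against 15.1% of all autosomal tiles. Another 211 tiles (2.59%) were higher by 0.2 or more, against 3.36%. The 20 other chromosomes had 13.7% to 17.7% lower tiles and 2.48% to 4.43% higher ones, and the pooled shares of the 4 segments lay within these ranges. Taken singly, chromosome 17 below 22 Mb (2.09%) and chromosome 18 (2.45%) had a smaller share of higher tiles than any of the 20, a difference that was not tested. On chromosome 17 below 22 Mb 227 tiles were lower and 31 higher, or 7.32 lower tiles for each higher one. On distal chromosome 2 there were 238 and 55, or 4.33, on chromosome 13 486 and 83, or 5.86, and on chromosome 18 253 and 42, or 6.02, and outside the segments the ratio was 4.41. Differences of 0.5 or more were found in 355 lower tiles (4.35%, against 4.76% of all autosomal tiles) and in 62 higher tiles (0.760%, against 1.12%).

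Some tiles switched state completely. In the segments, tiles with a SKNO-1 level of 0.1 or less and a SKNO1-siAE level of 0.9 or more numbered 103 (1.26%, against 1.23% of all autosomal tiles), and tiles with the opposite numbered 12 (0.147%, against 0.261%). Intermediate levels, from 0.3 to 0.7, were more common in SKNO-1, with 14.4% of the segments' tiles there and 7.69% in SKNO1-siAE. Outside the segments the shares were 15.3% and 9.73%. Levels above 0.9 were found in 36.4% of the segments' tiles in SKNO-1 and in 49.0% in SKNO1-siAE, and outside the segments in 32.5% and 42.3%.

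Reads of both DNA strands entered the mean of a tile, so agreement of the strands in the tiles counted here is a description. Of the 850 lower tiles with 5 or more measured cytosines on each strand, 836 had the same sign on both strands and 584 passed 0.2 on both. Of the 146 higher tiles of this kind, 143 had the same sign and 95 passed 0.2 on both. In a 2-sided Fisher's exact test per cytosine with Benjamini-Hochberg adjustment over all shared sites, 29962 of 246318 sites of the segments (12.2%) were called lower in SKNO-1 by at least 0.2, against 11.7% of all shared sites. The test called 9398 sites (3.82%) higher, against 4.4%.

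By annotation, the tiles between genes differed most. There the share of lower tiles was 25.6% on chromosome 18, 24.8% on chromosome 17 below 22 Mb, 20.5% on chromosome 13 and 19.4% on distal chromosome 2, against 20.04% outside the segments. Introns of chromosome 17 had 21.6% lower tiles (66 of 305), against 16.2% outside the segments. Those of chromosome 2 had 9.73% (43 of 442), of chromosome 13 13.0% and of chromosome 18 10.7%, and introns of all segments together had 13.2%. Promoter tiles, within 1500 bp before to 500 bp after the start of a protein-coding transcript, were lower in 398 of 2709 cases (14.7%) and higher in 76 (2.81%), and outside the segments in 14.4% and 3.95%. When the tiles outside were weighted to the segments' mix of these classes, 15.4% were lower and 3.40% higher. Since tiles of a class share libraries and neighbours, these shares were not tested.

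**Figure D3:**
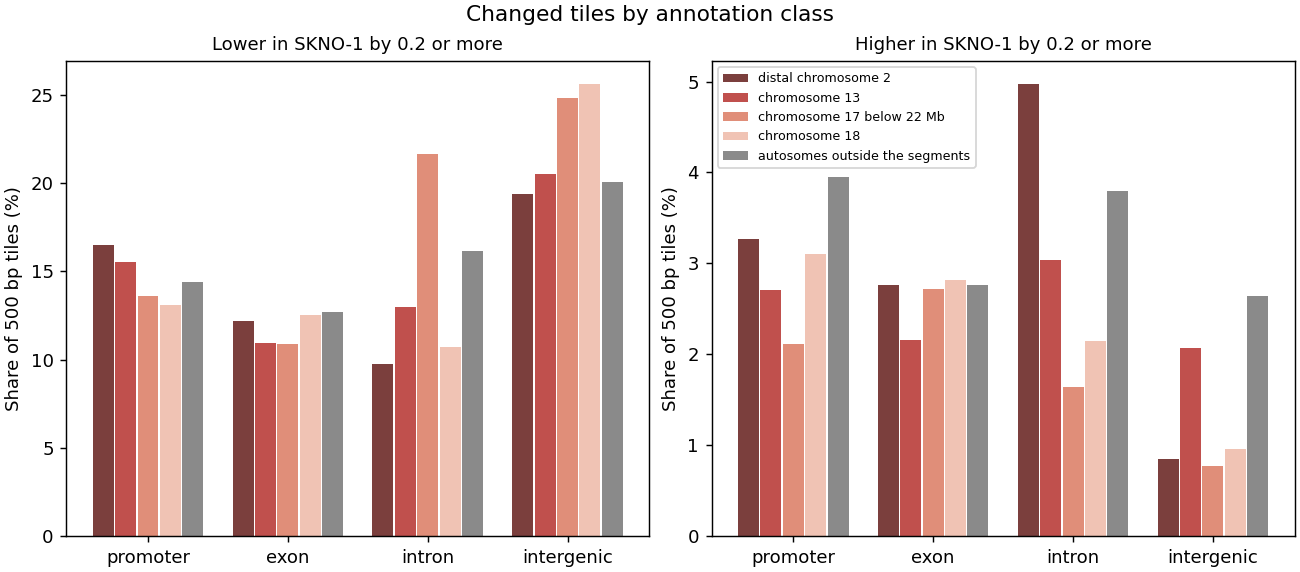
Share of 500 bp tiles (vertical axis, percent, starting at 0) that were lower (left) or higher (right) in SKNO-1 by 0.2 or more, by annotation class, for each segment and for the autosomes outside the segments (grey). Tiles between genes had the tallest bars on the left, up to 25.6% on chromosome 18, and on the right introns of chromosome 2 had 4.98%.

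The base content of promoter tiles was counted by direction. Lower promoter tiles of the segments had a median GC content of 59.8% and 26 CpGs, those within 0.2 had 60.0% and 30, and higher ones had 55.1% and 22. Outside the segments the same groups had medians of 26, 29 and 23 CpGs. The letters TGTGGT, a core of the RUNX motif, were searched on both strands of the 500 bp. They stood in 84 of 398 lower promoter tiles (21.1%), in 19 of 76 higher ones (25%) and in 18.1% of those within 0.2. Outside the segments they stood in 17.9% of lower, 20.3% of higher and 18.4% of all promoter tiles. Such a match is a description of the letters and not of binding.

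The promoter tiles with the largest higher levels in SKNO-1 are described first. Counts over a tile or a promoter window are given as calls, where 1 call is 1 read at 1 cytosine, so a read that spans several CpGs gives several calls and the number of reads is smaller. ATP9B, a member of the P-type ATPase family of phospholipid flippases, had the largest difference, in 1 of its 2 promoter tiles: at chr18:76828501-76829000, before the start of a transcript, the library of SKNO-1 had 232 methylated calls of 232 and that of SKNO1-siAE had 0 of 306. At the deepest cytosine of the tile in each library 21 of 21 reads were methylated in SKNO-1 (95% Wilson interval 0.845 to 1) and 0 of 34 in SKNO1-siAE (0 to 0.102). All 19 cytosines were called higher, with a smallest adjusted p of 8.41e-12 (Fisher's exact test). NDFIP2, an adaptor that activates ubiquitin ligases of the NEDD4 family, had 519 of 545 methylated calls and 1 of 641 at chr13:80055501-80056000, over an exon. The level there was 0.965 (50 cytosines, all called higher) against 0.00182, and both of its promoter tiles were higher. UGGT2, an enzyme that re-glucosylates misfolded glycoproteins in the endoplasmic reticulum, had 0.918 and 0.00433 at chr13:96705501-96706000, and all 3 of its promoter tiles were higher.

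On chromosome 2, KLF7, a zinc-finger transcription factor of the Krüppel-like family, had 234 of 252 methylated calls in SKNO-1 and 1 of 145 in SKNO1-siAE at chr2:208030501-208031000. HJURP, the chaperone that places CENP-A at centromeres, had 204 of 237 and 9 of 230 at chr2:234763501-234764000, upstream of the gene, where 1 of 3 promoter tiles was higher. ANKRD44, which encodes an ankyrin-repeat protein, had a level of 0.70 (15 cytosines) and 0.0417 in an intron at chr2:198174501-198175000. These tiles were nearly unmethylated in SKNO1-siAE, whereas that of TUBGCP3, a part of the gamma-tubulin complex, at chr13:113243001-113243500 was intermediate there with 0.459, against 0.971 in SKNO-1.

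On chromosome 17 the largest higher value in a promoter window was that of SPAG7, at chr17:4872501-4873000, with 201 of 206 methylated calls in SKNO-1 and 7 of 210 in SKNO1-siAE. This tile lies inside CAMTA2, over a coding exon and an untranslated part of that gene, so it cannot be given to SPAG7 alone. ZNF594, a zinc-finger gene, had 499 of 529 and 3 of 490 at chr17:5095001-5095500, all on the plus strand. SPNS3, of a family of lipid transporters, had 189 of 189 and 30 of 153 upstream of its start, at chr17:4336001-4336500.

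On chromosome 18, EPB41L3 and TCF4 had differences at a transcript start. EPB41L3 encodes a membrane skeleton protein described as a tumour suppressor, and its tile at chr18:5544001-5544500 had 0.868 in SKNO-1 and 0.0263 in SKNO1-siAE. Of its 7 promoter tiles, 2 were higher and 1 was lower. TCF4 encodes an E protein, a basic helix-loop-helix factor that plasmacytoid dendritic cells need, and its tile at chr18:53257001-53257500 had 843 of 1099 and 28 of 1259 methylated calls. Of its 58 cytosines, 52 were called higher and none lower.

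**Figure D4:**
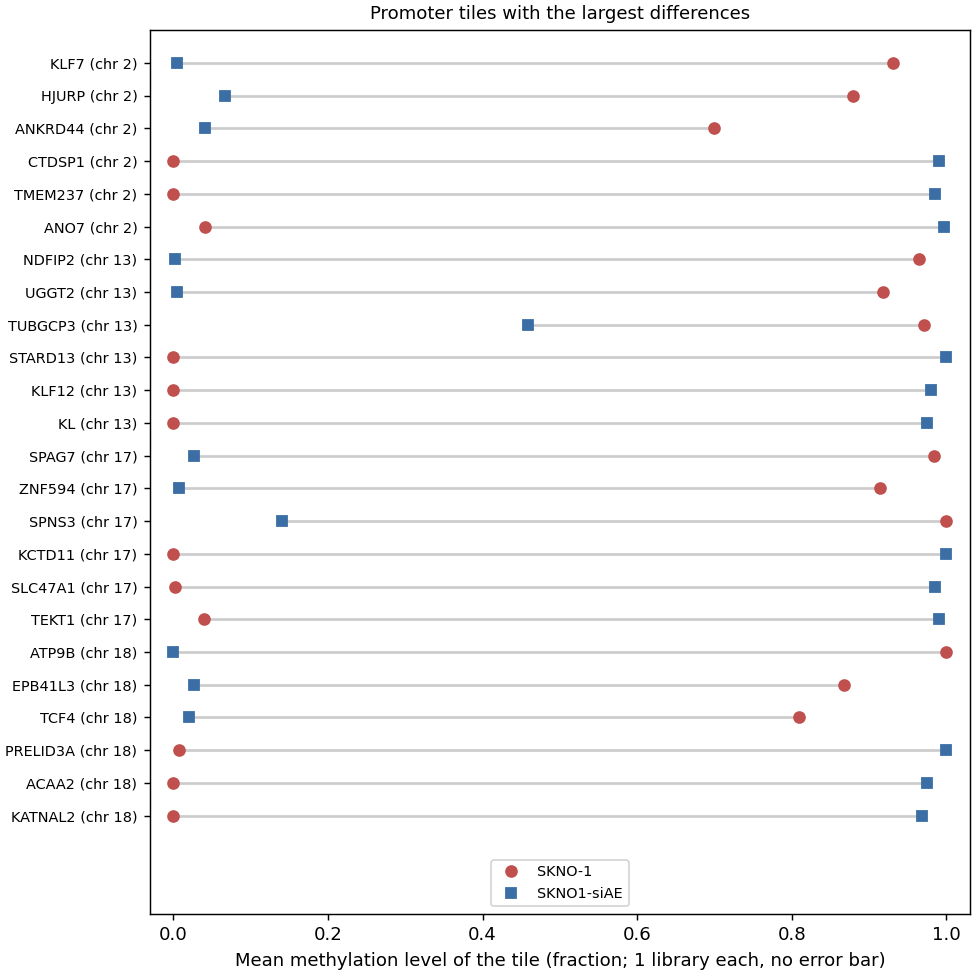
Mean methylation level (horizontal axis, fraction) of 24 promoter tiles in SKNO-1 (circles) and SKNO1-siAE (squares), the 3 tiles with the largest difference in each direction on each segment. The tiles were picked for their difference, and all of the 12 lower ones lay at 0.0407 or less in SKNO-1 and at 0.968 or more in SKNO1-siAE.

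The promoter tiles picked for a lower level in SKNO-1 were nearly fully methylated in SKNO1-siAE and unmethylated or nearly so in SKNO-1. STARD13 had 0 of 362 methylated calls in SKNO-1 and 275 of 275 in SKNO1-siAE at chr13:33924501-33925000, and 5 of its 7 promoter tiles were lower. KCTD11, an adaptor of a cullin ubiquitin ligase that antagonises Hedgehog signalling, had 0 of 150 and 171 of 171 at chr17:7254501-7255000. All 4 of its promoter tiles were lower, and this one also covers a coding exon and an untranslated part of the neighbouring gene ACAP1. PRELID3A, of a family of mitochondrial lipid transfer proteins, had 3 of 275 and 309 of 309 at chr18:12420001-12420500, with 4 of 5 promoter tiles lower.

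On chromosome 2, CTDSP1, a phosphatase that acts on RNA polymerase II, had 0 of 106 methylated calls in SKNO-1 and 145 of 146 in SKNO1-siAE at chr2:219262501-219263000. TMEM237, a protein of the ciliary transition zone, had 0 of 107 and 289 of 294 at chr2:202508001-202508500. ANO7, of the anoctamin family, had 15 of 366 and 555 of 557 at chr2:242157001-242157500. Of the promoter tiles of these genes, 2 of 4 were lower at CTDSP1, 1 of 4 at TMEM237 and 1 of 3 at ANO7. The median depth of the cytosines of the 3 tiles was 7 to 9 reads in SKNO-1 and 14 to 22 in SKNO1-siAE.

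KLF12, a Krüppel-like factor that represses transcription, was lower in all 3 of its promoter tiles. At chr13:74708001-74708500 it had 0 of 190 methylated calls in SKNO-1 and 261 of 268 in SKNO1-siAE, all of them on the plus strand. KL, the co-receptor klotho of a phosphate-regulating hormone, had 0 of 202 and 393 of 411 at chr13:33589001-33589500, and 3 of its 4 tiles were lower. The smallest adjusted p of the KL tile was 3.97e-31 (Fisher's exact test).

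SLC47A1, an exporter of drugs and other organic cations in kidney and liver, had 1 of 301 methylated calls in SKNO-1 and 848 of 862 in SKNO1-siAE at chr17:19437001-19437500, and all 50 cytosines were called lower. TEKT1, a tektin of cilia and sperm tails, had 30 of 553 and 1454 of 1470 at chr17:6735001-6735500. ACAA2, a thiolase of mitochondrial fatty acid oxidation, had 0 of 174 and 209 of 218 at chr18:47339501-47340000, where 3 of 3 tiles were lower. KATNAL2, a katanin-like protein of microtubules, had 0 of 150 and 251 of 259 at chr18:44527001-44527500, but of its 6 promoter tiles 2 were lower and 1 was higher.

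**Figure D5:**
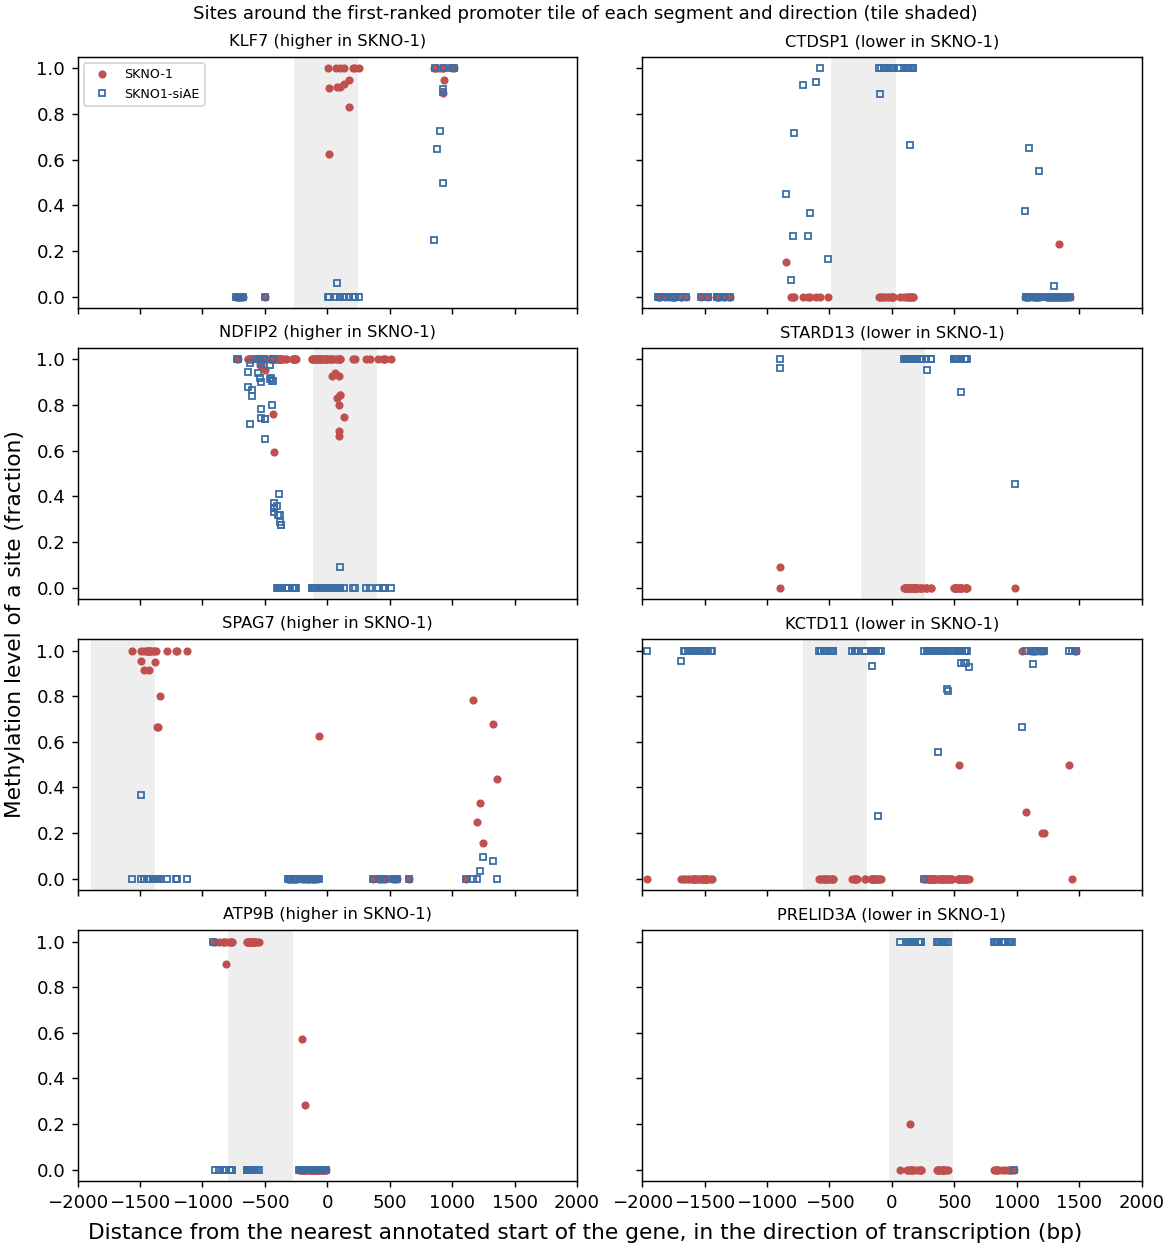
Methylation level of each measured cytosine (vertical axis, fraction) in SKNO-1 (filled circles) and SKNO1-siAE (open squares) against its distance from the nearest annotated transcript start (bp, in the direction of transcription), for the promoter tile with the largest difference in each direction on each segment (shaded). At KCTD11 the opposite states ran over most cytosines of all 4 promoter tiles, whereas at ATP9B most cytosines next to the start were at 0 in both libraries.

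Outside promoters, the largest differences per segment fell in gene bodies and in one stretch between genes. FEV, an ETS-family factor of serotonergic neurons, had 453 of 465 methylated calls in SKNO-1 and 0 of 656 in SKNO1-siAE over a coding exon at chr2:219848501-219849000. The 2 measured cytosines in the promoter window of its main transcript went the other way, with 0 of 14 and 27 of 27. FZD5, a receptor for Wnt ligands, had the opposite in its exon at chr2:208633001-208633500, with 0 of 131 and 147 of 147. An intron of DLEU1, a long non-coding RNA gene of a region often deleted in chronic lymphocytic leukaemia, had 118 of 118 and 3 of 406 at chr13:50796501-50797000. Between genes, at chr13:44990001-44990500, the methylated calls were 0 of 150 and 288 of 288.

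On chromosome 17, an intron of RTN4RL1, of the Nogo receptor family, had 227 of 262 and 0 of 238 at chr17:1927501-1928000, and an exon of ASGR1, the liver receptor for asialoglycoproteins, had 0 of 181 and 217 of 228 at chr17:7077501-7078000. On chromosome 18, an intron of NFATC1, a calcium-dependent transcription factor, had 220 of 246 and 4 of 301 at chr18:77202501-77203000, while an intron of KCNG2, a modifier subunit of potassium channels, had 0 of 158 and 113 of 113 at chr18:77558501-77559000.

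In the 32 tiles named so far, the deepest cytosine had 7 to 55 reads in SKNO-1 and 7 to 84 in SKNO1-siAE. The widest 95% Wilson interval at such a cytosine spanned 0.354 in either library, at FZD5 in SKNO-1 and at FZD5 and KCNG2 in SKNO1-siAE. In 12 of the tiles SKNO-1 had 0 methylated calls, and the deepest cytosine of these had 7 to 47 reads. A rough upper limit of the share, 3 divided by the reads, is 42.9% at 7 reads and 6.38% at 47. The Wilson intervals of the same cytosines, at FZD5 and KL, ended at 0.354 and 0.0756. The measured cytosines lay on the plus strand alone in 5 of the 32 tiles, among them ZNF594, KLF12 and ACAA2, and on the minus strand alone in 2, CTDSP1 and EPB41L3.

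Lists of genes on the segments were read over the promoter window of the main transcript, with 10 or more cytosines. Of 1122 protein-coding genes of the segments with such a window, 173 (15.4%) were lower in SKNO-1 by 0.2 or more and 29 (2.58%) higher, against 14.1% and 2.99% of all autosomal promoters. The median difference was -0.00847 over the genes of the segments and -0.00790 over all autosomal genes. Of the listed genes, 33 of 36 signalling, 42 of 45 blood cell, 19 of 21 tumour suppressor, 19 of 19 chromatin, 20 of 21 developmental and 2 of 3 imprinted genes had 10 or more cytosines there. The lists are small, and their counts are descriptions.

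Of the signalling, adhesion and receptor genes, 12 of 33 were lower and 2 higher, with a median difference of -0.116. IRS1, which couples the insulin receptor to its kinases, had 0 of 423 methylated calls in SKNO-1 and 360 of 405 in SKNO1-siAE, and its relative IRS2 went the other way with 202 of 534 and 10 of 754. GPC5, a heparan sulphate proteoglycan of the cell surface, had levels of 0.180 and 0.921. SLITRK5 and SLITRK1, transmembrane proteins of synapses, had 0.0157 and 0.707, and 0.599 and 0.917. NRP2, a co-receptor for semaphorins and vascular growth factors, had 0.349 and 0.899. The Wnt ligands WNT6 (0.478 and 0.855) and WNT10A (0.453 and 0.689), the insulin-like growth factor binding proteins IGFBP2 (0.347 and 0.718) and IGFBP5 (0.524 and 0.827), the cadherin CDH2 (0.623 and 0.947), KL (0.362 and 0.954) and the melanocortin receptor MC5R (0.00164 and 0.226) made up the rest of the lower genes. The second higher gene was the protocadherin PCDH9, with 605 of 1473 methylated calls in SKNO-1 and 5 of 1966 in SKNO1-siAE.

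Of the blood cell and leukaemia genes, 5 of 42 were lower and 3 higher, with a median difference of 0.00268. KLF12 had 0 of 564 and 667 of 704 methylated calls over its window. SETBP1, a gene mutated in myeloid neoplasms, had 0.361 and 0.934. The T cell receptors of co-stimulation and inhibition CD28 (0.614 and 0.923) and CTLA4 (0.203 and 0.853) were lower, and so was the B cell receptor TNFRSF13B (0.609 and 0.824). TCF4 was higher, with 0.643 and 0.00339, as were GPR183, an oxysterol receptor that guides lymphocytes, with 0.936 and 0.343, and LCP1, an actin-bundling protein of leukocytes, with 0.877 and 0.476. Genes of myeloid interest within 0.2 included FLT3 (0.0601 and 0.108), IDH1 (0 and 0.0184), BCL2 (0.0820 and 0.0285) and INPP5D (0 and 0).

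Of the tumour suppressor and DNA repair genes, 2 of 19 were lower and 1 was higher. XAF1, a pro-apoptotic protein, had 209 of 552 methylated calls in SKNO-1 and 779 of 806 in SKNO1-siAE, DCC, a netrin receptor, had 0.589 and 0.805, and EPB41L3 was higher, with 0.716 and 0.259. SMAD4 (0.00159 and 0) and BRCA2 (0.00431 and 0) were unmethylated or nearly so in both libraries, and 10 of the 19 genes had a level under 0.1 in both. None of 19 chromatin and co-repressor genes differed by 0.2. Among them NCOR1, a co-repressor, had 0 in SKNO-1 and 0.153 in SKNO1-siAE, and HDAC4, a histone deacetylase, had 0.00242 and 0.00743.

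Of the developmental transcription factors, 3 of 20 were lower and none higher. ONECUT2 had 0.534 and 0.928, HES7, a factor of the somite clock, had 0.0152 and 0.269, and POU4F1 had 0 of 1132 and 464 of 2371 methylated calls. Many of the others were methylated in both libraries, such as ZIC2 (0.964 and 0.925), PDX1 (0.865 and 0.855), SOX1 (0.877 and 0.913) and SALL3 (0.962 and 0.961).

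Imprinted genes are methylated on the copy from one parent alone at their control regions, which gives intermediate levels in most tissues. The promoter window of RB1, the retinoblastoma gene, had 0.152 in SKNO-1 and 0.143 in SKNO1-siAE. The CpG-rich stretch inside RB1, which carries its imprint, was nearly fully methylated in both libraries. From chr13:48892501-48893000 to chr13:48895001-48895500 the 5 measured tiles had levels of 0.881, 0.941, 0.996, 0.918 and 0.972 in SKNO-1 and of 0.938, 0.978, 0.954, 0.994 and 0.935 in SKNO1-siAE. ZDBF2, expressed from the paternal copy, had 0.827 and 0.638 over its window, a difference of 0.188, and its tile at chr2:207139001-207139500 had 688 of 785 methylated calls in SKNO-1 and 613 of 998 in SKNO1-siAE. The RB1 tiles were picked after their values were seen.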

How the data were processed

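The deposited values were counts, the methylated and unmethylated reads of each CpG cytosine on each strand in 1 library of SKNO-1 and 1 of SKNO1-siAE, not normalized. To make them the authors captured bisulfite-converted DNA (MCC-Seq) and sequenced it as 125 bp paired reads. Per the labels, the submitters' processing notes name cutadapt 1.4.2, BSMAP 2.73 and hg19. Every deposited cytosine had 5 or more reads. That the fourth column holds the methylated reads was inferred from the mitochondrial and known promoter sites.

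From these counts, levels were computed at cytosines with 5 or more reads in both libraries, averaged in 500 bp tiles with 10 or more of them. A tile was counted at a difference of 0.2 or more. The log2 read share ratio is the share of autosomal reads, summed over shared cytosines, in SKNO-1 over that in SKNO1-siAE. For each shared cytosine a 2-sided Fisher's exact test compared the reads, adjusted by Benjamini-Hochberg over all shared cytosines and called under 0.05. Depth is the limit of precision: a cytosine had a median of 13 reads in SKNO-1 and 20 in SKNO1-siAE in the segments. A read counts once at each CpG it spans, so sums over cytosines have no interval, and 95% Wilson intervals are given at the deepest cytosine of a tile. The calling of tiles and sites was also run on simulated data, as a check of the code alone. The simulation drew the reads of each cytosine independently, so it does not measure the error of calls that share reads.

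The named tiles were, per segment and direction, the 3 promoter genes and the 1 other tile with the largest difference and 100 or more calls (reads summed over cytosines) in each library. Printed sequences were the first of these with a 150 bp stretch clear of annotated untranslated regions and 5 or more shared cytosines. Members and lists were chosen with earlier results of these data known. Genes came from GENCODE release 44 lifted to GRCh37. Of the listed genes, GPR1 is CMKLR2 in that annotation. The analysis used python 3.11.15, numpy 2.4.6, pandas 2.3.3, scipy 1.17.1, numba 0.67.0 and matplotlib 3.10.9. The alternatives tried were other read minimums, pooled reads, matched depths, merged or single strands, own sites, other tiles, another adjustment and thinned reads.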

Additional observations from a re-analysis of the deposited data

How the results depend on the processing

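No paired analysis was possible because each line had 1 library. The direction of the read share ratio was used to choose the segments, so that every alternative kept it is no support. Every alternative also kept the direction of the methylation difference. The log2 read share ratio of the segments, -0.58, was -0.55 with 10 or more reads, -0.75 over all deposited sites, -0.64 against the reads outside and -0.49 as the median of sites. After seeing the data, it was -0.60 in the bins at or under -0.3 alone, a choice by the ratio itself, and -0.59 with chromosome 17 taken up to 36 Mb. The methylation difference, -0.0704, was -0.0633 with 10 or more reads, -0.0740 in pooled reads, -0.0672 at depths within 25%, -0.0723 with merged strands, -0.0731 over each library's own sites and -0.0694 in the bins at or under -0.3 alone, the last chosen after seeing the data. Segments minus outside was -0.00332, but -0.00641 in pooled reads, 7.29e-05 with 10 or more reads and 0.00278 over own sites, so its size and sign depended on these settings. Lower tiles, 1204 (14.8% of 8162, against 15.1% of all tiles), were 602 with 10 or more reads (12.6% of 4786, against 13.4%), 487 with 20 or more sites (12.4% of 3934, against 13%) and 355 at a difference of 0.5 (4.35%, against 4.76%), and 1103 in tiles of 1000 bp (15.5% of 7116, against 15.4%). Higher tiles, 211 (2.59%, against 3.36%), were 121 (2.53%, against 3.07%), 80 (2.03%, against 2.61%) and 62 (0.760%, against 1.12%). Sites called lower, 29962 (12.2%, against 11.7% of all sites), were 5647 with Bonferroni adjustment (2.29%, against 2.28%) and 19937 with 10 or more reads (13.8%, against 13.6%). Sites called higher, 9398 (3.82%, against 4.4%), were 1422 with Bonferroni adjustment (0.577%, against 0.669%) and 6175 with reads thinned to the smaller depth (2.51%, against 2.83%). Depth limits the precision of single cytosines, and it was lower in SKNO-1 in the segments.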
